A study of Rattus norvegicus with 7 samples.

Results

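Acetylated regions of S16 cells in which NR2F2 was the sole mapped factor are described here. S16 is a rat Schwann cell line, and Schwann cells are the myelinating glia of peripheral nerve. A region was taken as an H3K27ac peak, mitochondrial peaks left out, that shared at least 1 bp with an NR2F2 peak and none with a peak of YY1, RXRG, TEAD1 or SREBP1. Of 99514 H3K27ac peaks, 6745 met this rule, which is 6.78%. NR2F2 was present in 25415 H3K27ac peaks (25.5%), so that the remaining 18670 regions with NR2F2 held at least 1 other factor. On autosomes, NR2F2 was alone in 25.9% of the H3K27ac peaks that held it. Of all autosomal H3K27ac peaks, 44.2% held YY1, RXRG, TEAD1 or SREBP1 and 49.3% held no peak of any mapped factor. Peaks with NR2F2 thus lacked the other factors less often than H3K27ac peaks in general. The regions were chosen by these measured overlaps, so the counts are a description and were not tested.

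The lists for NR2F2, YY1, RXRG and TEAD1 came from CUT&RUN in untreated S16 cells, in which an antibody tethers a nuclease that releases bound DNA. H3K27ac was mapped by ChIP-seq in untreated S16 cells. SREBP1 came from ChIP-seq of wild-type sciatic nerve at postnatal day 15, a tissue that holds cells other than Schwann cells, and it was called absent or present in S16 regions from that material. The series names 7 samples, among them an input of the nerve, and the 6 peak lists analysed stand for 1 library each. No replicate error could be had and no test was run. Intervals at 95% are exact binomial ones for shares and exact order-statistic ones for medians. They treat regions as independent and cover counting error only. Read depth is unknown and the lists hold positions without a usable score. A factor was absent only in the sense that no peak of its list was there. No list from a CUT&RUN control was analysed here.

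NR2F2, also called COUP-TFII, is an orphan nuclear receptor that binds repeats of the nuclear receptor half-site and can repress or activate transcription. H3K27ac, acetylation of lysine 27 of histone H3, marks active promoters and enhancers. Among the factors that define the regions by their absence, RXRG is a retinoid X receptor, the usual partner of other nuclear receptors. YY1 is a zinc finger protein needed for peripheral myelination, TEAD1 brings the Hippo pathway coactivators YAP and TAZ to DNA, and SREBP1 drives genes of lipid synthesis. The study asked whether NR2F2 is found at Schwann cell enhancers bound by SOX10, a factor whose sites were not analysed here, and used H3K27ac to tell which enhancers are active in S16.

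Regions with NR2F2 alone were narrow. Their median width was 444 bp (436 to 454 bp), against 1038 bp (1028 to 1050 bp) for regions with NR2F2 and another factor and 497 bp (490 to 503 bp) for the 48763 regions with no factor. The middle 50% of regions with no factor spanned 290 to 932 bp. That of sole-NR2F2 regions spanned 303 to 762 bp, starting higher and ending lower, and their widest was 4413 bp. They were also narrower than regions holding a different single factor, whose medians were 632 bp for the 4439 with RXRG, 1034 bp for the 4863 with YY1, 985.5 bp for the 1276 with TEAD1 and 909 bp for the 2569 with SREBP1. The order held against regions with NR2F2 and others on 21 of 21 placed chromosomes, and against regions with no factor on 20 of 21. A narrow region has less room to meet any list, and the lists themselves differed in peak width. The median peak was 184 bp for RXRG, 302 bp for TEAD1, 303 bp for NR2F2 and 439 bp for YY1, while every SREBP1 peak was 485 bp. H3K27ac peaks without another factor were more frequent among the narrowest peaks than among the widest, and those with NR2F2 less frequent, as given below. The part of this in the width of sole-NR2F2 regions was not tested. At the narrowest width in the H3K27ac list, 231 bp, stood 6.55% of sole-NR2F2 regions, 0.787% of regions with NR2F2 and others and 8.09% of regions with no factor.

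NR2F2 occupancy and its exclusivity ran in opposite directions with width. The H3K27ac peaks were divided into 10 classes of about equal number by width. In the narrowest class, 231 to 256 bp, 12.2% of peaks held NR2F2, and NR2F2 was alone in 71.7% of those (69.1 to 74.2%). In the widest class, 1868 to 9902 bp, 33.4% held NR2F2 and it was alone in 5.74% of those (4.98 to 6.59%). As a share of all H3K27ac peaks, sole-NR2F2 regions were most frequent in the third class, 323 to 425 bp, at 12.4% (11.8 to 13.1%), and least frequent in the widest, at 1.92% (1.66 to 2.21%). Any of the other 4 factors was in 11.7% of H3K27ac peaks of the narrowest class and in 80.2% of those of the widest. In both classes, peaks with NR2F2 thus lacked the other factors less often than all H3K27ac peaks did.

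**Figure D1:**
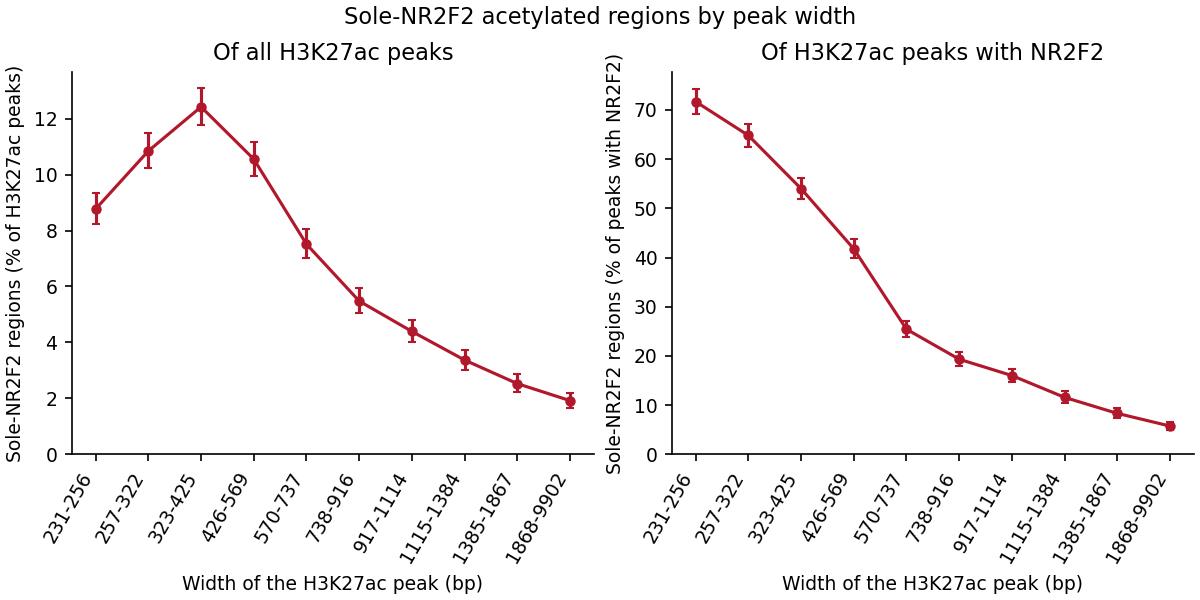
Share of sole-NR2F2 regions in 10 classes of H3K27ac peak width (x axis, bp), as a percentage of all H3K27ac peaks (left) and of H3K27ac peaks with NR2F2 (right). Points are shares and bars exact binomial 95% intervals. The left share was highest at 12.4% in the third class, and the right one went from 71.7% in the narrowest class to 5.74% in the widest.

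Nearly every sole-NR2F2 region held a single NR2F2 peak. There was 1 in 6569 regions, 2 in 173 and 3 in 3, so that 2.61% (2.24 to 3.02%) held more than 1, against 8.55% (8.15 to 8.96%) of regions with NR2F2 and others. The 6924 NR2F2 peaks in sole-NR2F2 regions had a median width of 289 bp (285 to 293 bp), against 378 bp (375 to 382 bp) for the 20428 in regions with another factor. The 14460 NR2F2 peaks outside H3K27ac were narrower still, with a median of 249 bp (248 to 251 bp). At the narrowest width in the NR2F2 list, 203 bp, stood 12.8% of the peaks in sole-NR2F2 regions, 6.32% of those in regions with another factor and 22.1% of those outside H3K27ac. By width, the NR2F2 peaks of sole-NR2F2 regions thus lay between those of the other groups. Within each of the 10 classes of region width, and on each of the 21 placed chromosomes, NR2F2 peaks were narrower where NR2F2 was alone.

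NR2F2 peaks sat less centrally in these regions, and at equal region width they covered less of them. Over all widths they covered a median of 60.4% (59.0 to 61.8%) of a sole-NR2F2 region, against 43.4% (42.7 to 44.0%) of a region with NR2F2 and others, which are wider. Within each of the 10 width classes the order was the opposite, at 71.8% against 79.5% at 323 to 425 bp, 35.2% against 51.9% at 738 to 916 bp and 11.5% against 15.1% in the widest class. Position was measured as the distance between the midpoints of the NR2F2 peak and of the region, divided by the distance from the region's midpoint to its edge, so that 0 is the centre and 1 the edge. The median was 0.421 (0.405 to 0.436) in sole-NR2F2 regions and 0.306 (0.300 to 0.312) in regions with another factor. Of the NR2F2 peaks in sole-NR2F2 regions, 40.3% lay wholly inside the acetylated region, 52.1% crossed 1 of its edges and 7.63% spanned it. Of those in regions with another factor, 73.2% lay inside, 24.1% crossed an edge and 2.78% spanned the region. The midpoint of the NR2F2 peak fell outside the acetylated region in 8.98% of cases where NR2F2 was alone and in 2.59% where it was not.

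The off-centre position did not come with narrow regions only. In the class of 323 to 425 bp, the median position was 0.284 in sole-NR2F2 regions and 0.191 in regions with another factor. In the widest class it was 0.727 in sole-NR2F2 regions and 0.430 in regions with another factor. The value was higher with NR2F2 alone in all 10 classes and on 21 of 21 placed chromosomes. In each class the NR2F2 peaks were also narrower with NR2F2 alone, at a median of 313 against 454 bp for regions of 570 to 737 bp. Position was not compared at equal width of the NR2F2 peak, so the 2 traits are not separated here. Each of the 5 widest sole-NR2F2 regions held 1 NR2F2 peak, which covered between 4.60% and 10.9% of the region. The widest, at chr7:95044256-95048668 (build rn5), held an NR2F2 peak of 203 bp at chr7:95044960-95045162. The fourth widest, at chr1:184148244-184152032, was 3789 bp wide and held its NR2F2 peak of 225 bp at chr1:184148282-184148506, near its start.

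**Figure D2:**
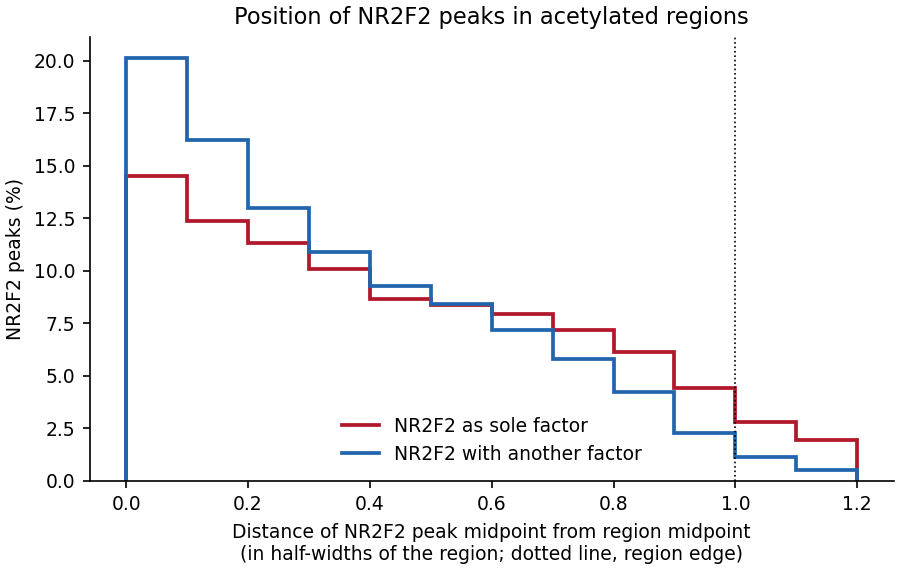
Distance of NR2F2 peak midpoints from the midpoint of their acetylated region (x axis, 0 at the centre and 1 at the edge) as a percentage of NR2F2 peaks (y axis), for regions with NR2F2 as sole factor and regions with NR2F2 and another factor. Peaks beyond 1.2 are not drawn. The sole-NR2F2 line is lower near the centre and higher beyond the edge, with medians of 0.421 and 0.306.

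Sole-NR2F2 regions with the widest NR2F2 peaks were of mixed form. The widest such peak, 1522 bp at chr9:88395260-88396781, covered the whole of a 528 bp acetylated region at chr9:88395692-88396219. At chr1:110939704-110940876, an NR2F2 peak of 1108 bp filled 94.5% of the region, and the nearest peak of another factor was of RXRG, 70958 bp away. An NR2F2 peak of 1065 bp covered 99.1% of the region at chr6:129705732-129706500, with the nearest H3K27ac peak 152175 bp away. By contrast, the NR2F2 peak of 1108 bp at chr20:30061277-30062384 had its midpoint outside the 235 bp acetylated region it met, chr20:30062251-30062485, and an RXRG peak lay 79 bp from that region. Among regions with 3 NR2F2 peaks, chr16:74626006-74627793 and chr2:139326644-139327938 each had another sole-NR2F2 region as the nearest acetylated neighbour, at 7791 bp and 132859 bp.

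Sole-NR2F2 regions lay far from the other factors, farther than regions with no factor at all. Over the 6694 on placed chromosomes, the median distance from the edge of the region to the nearest peak of YY1, RXRG, TEAD1 or SREBP1 was 11138 bp (10634 to 11835 bp), against 6265 bp (6195 to 6338 bp) for 48650 regions with no factor. Another factor lay within 1 kb of 5.93% of sole-NR2F2 regions (5.38 to 6.52%) and of 10.7% of regions with no factor (10.4 to 11.0%), with 10.1% over both kinds of region. The values depended on what counts as overlap, at 9.05% against 15.1% when a factor's midpoint had to lie in the region and 2.21% against 4.33% when the other factors were extended by 500 bp. Within 10 kb the shares were 47.3% and 67.5%, and within 100 kb 93.2% and 98.9%. The median distance was greater for sole-NR2F2 regions in 9 of the 10 width classes, the class of 1385 to 1867 bp being the exception at 5641 against 5851 bp. The difference was smaller in wide regions, at 13591 against 7081.5 bp in the narrowest class and 6312 against 6027.5 bp in the widest. The median distance was greater for sole-NR2F2 regions on 20 of 21 placed chromosomes.

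**Figure D3:**
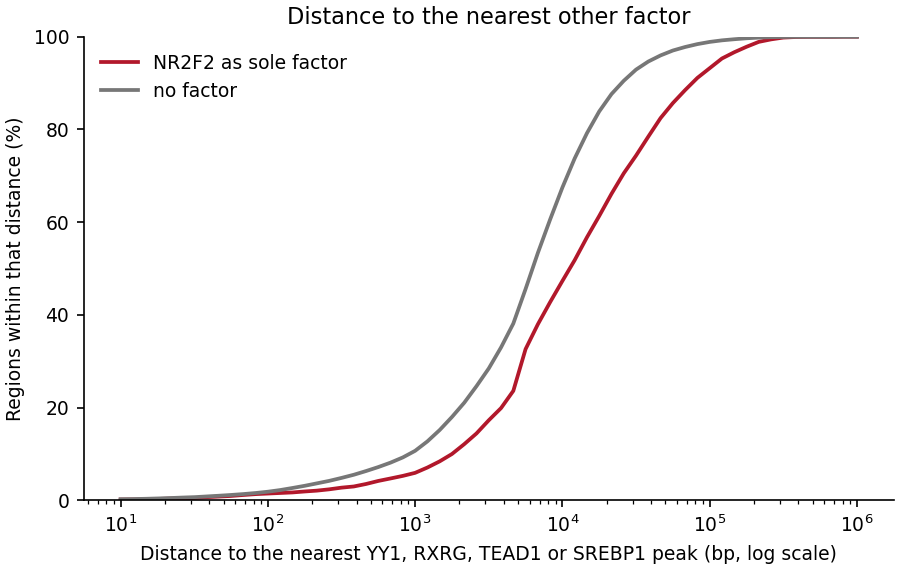
Percentage of regions (y axis) that have a YY1, RXRG, TEAD1 or SREBP1 peak within the distance on the x axis (bp, log scale), for regions with NR2F2 as sole factor and regions with no factor on placed chromosomes. The sole-NR2F2 line runs below the other, with 47.3% against 67.5% at 10 kb.

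The other factors differed in how far they were. RXRG, the fellow nuclear receptor, was nearest, at a median of 22344 bp from sole-NR2F2 regions against 14307.5 bp from regions with no factor. YY1 was at a median of 36439 bp against 14830 bp, TEAD1 at 47322 bp against 21546.5 bp and nerve SREBP1 at 58859.5 bp against 18300 bp. Each factor was thus farther from sole-NR2F2 regions, with the smallest ratio for RXRG. The closest peak of another factor was of RXRG for 49.8% of sole-NR2F2 regions (48.6 to 51.0%) and for 37.7% of regions with no factor, while RXRG made up 33.6% of all peaks of these lists. For YY1 the shares were 19.0% and 25.8%, with 27.2% of all peaks. For SREBP1 they were 17.4% and 24.2%, with 20.7% of all peaks, and for TEAD1 13.8% and 12.3%, both below its 18.5% of all peaks. This closest peak lay in another acetylated region for 45.0% of sole-NR2F2 regions and for 45.7% of regions with no factor, both below the 64.1% of all peaks of these lists that lie in H3K27ac. Neither kind of region can hold such a peak itself.

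Some sole-NR2F2 regions stood just inside the rule. Another factor lay within 50 bp of 58 of them, the smallest distance being 1 bp, and 86 regions with NR2F2 were left out by an overlap of 50 bp or less. The nearest cases, chr5:113204477-113204707 and chr7:52262737-52263077, were each 1 bp from an RXRG peak. In 70 sole-NR2F2 regions (1.04%) the NR2F2 peak itself ran beyond the acetylated edge and met another factor there, which was RXRG in 51. Conversely, 1102 NR2F2 peaks that met no other factor themselves were not counted here because another factor lay elsewhere in their acetylated region. The regions left out because of a single further factor were 3538 for RXRG, 1199 for YY1, 390 for TEAD1 and 100 for SREBP1. Their median widths were 613.5 bp for RXRG, 880.0 bp for YY1, 488.5 bp for TEAD1 and 1119 bp for SREBP1, each above the 444 bp of sole-NR2F2 regions.

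The surroundings of sole-NR2F2 regions held little other acetylation. The nearest H3K27ac peak was at a median of 8856.5 bp (8359 to 9348 bp), against 6965.5 bp (6865 to 7086 bp) for regions with NR2F2 and others and 5016.5 bp (4977 to 5054 bp) for regions with no factor. No other H3K27ac peak lay within 10 kb of 47.3% of sole-NR2F2 regions (46.1 to 48.5%), against 36.1% of regions with NR2F2 and others and 23.5% of regions with no factor, with 27.6% for all H3K27ac peaks. The distance exceeded that of regions with no factor in all 10 width classes and on 21 of 21 placed chromosomes. It was 12421 against 5582 bp in the narrowest class but nearly equal in the widest, at 5158 against 5140 bp. Against regions with NR2F2 and others it was greater on 18 of 21 placed chromosomes but in only 4 of the 10 width classes, the 4 narrowest. The share with no other H3K27ac peak within 10 kb varied with width as well. It was lower for sole-NR2F2 regions than for regions with NR2F2 and others in each class from 570 to 1867 bp, and higher in the other classes. The values were 54.6% against 44.0% in the narrowest class, 28.6% against 36.1% at 1115 to 1384 bp and 24.1% against 14.7% in the widest. Both differences from regions with NR2F2 and others thus varied with width.

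**Figure D4:**
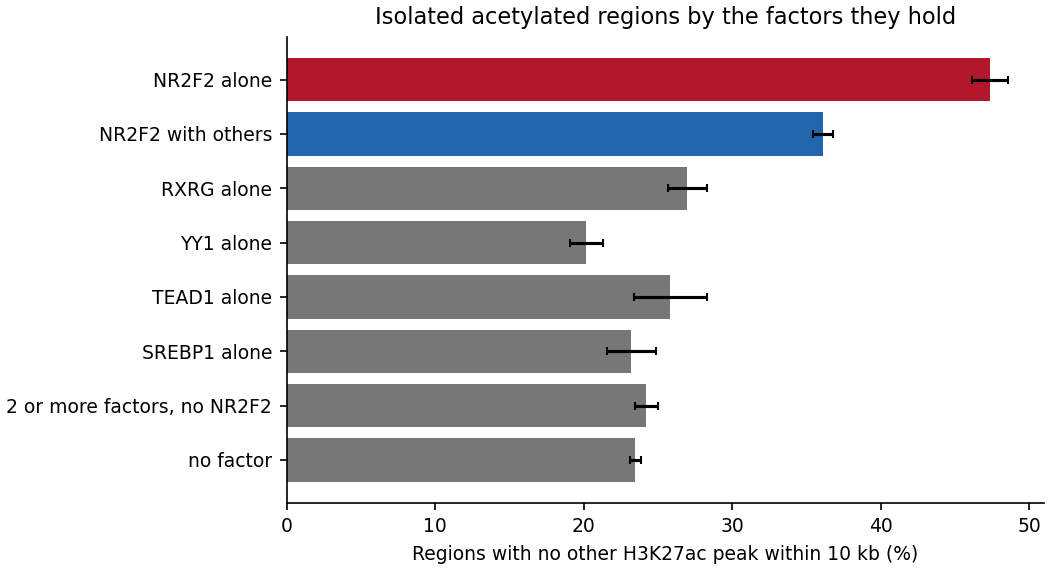
Percentage of acetylated regions with no other H3K27ac peak within 10 kb (x axis), by the factors they hold (y axis). Bars are shares over all region widths, with exact binomial 95% intervals. Sole-NR2F2 regions are highest at 47.3%, followed by regions with NR2F2 and another factor at 36.1%.

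Within 100 kb on either side, acetylation and the other 4 factors were sparser around sole-NR2F2 regions than around regions with no factor, while NR2F2 differed little between them. A sole-NR2F2 region had a mean of 4.18 further NR2F2 peaks in that range, against 5.47 for regions with NR2F2 and others and 4.04 for regions with no factor. The medians were 3, 4 and 4, so that mean and median differ in order against regions with no factor. It had a mean of 8.04 other H3K27ac peaks, against 12.3 for regions with NR2F2 and others and 14.4 for regions with no factor. The means for YY1 were 3.08 around sole-NR2F2 regions and 5.49 around regions with no factor. For RXRG they were 3.92 and 5.46, for TEAD1 2.33 and 3.60 and for SREBP1 2.04 and 3.86, in the same order. Fewer H3K27ac peaks surrounded sole-NR2F2 regions than regions with no factor in 9 of the 10 width classes, with equal medians of 17 in the widest, and fewer than regions with NR2F2 and others in all 10. The nearest unacetylated NR2F2 peak was at a median of 59631.5 bp (56842 to 62959 bp) from sole-NR2F2 regions and 58446 bp (57007 to 59777 bp) from regions with NR2F2 and others, whose intervals overlap. It was at 69280.0 bp (68236 to 70325 bp) from regions with no factor.

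The nearest acetylated neighbour was of the same kind for a larger share of sole-NR2F2 regions than of other H3K27ac peaks, though for a minority. It was a sole-NR2F2 region for 1145 of 6704 sole-NR2F2 regions with a neighbour on their chromosome or scaffold, or 17.1% (16.2 to 18.0%). That compared with 9.95% for regions with NR2F2 and others, 5.28% for regions with no factor and 6.6% for all H3K27ac peaks. A further 26.8% of sole-NR2F2 regions had a neighbour with NR2F2 and others, above the 17.1% of all H3K27ac peaks, and 40.2% had one with no factor, below the 51.0% of all. With only the NR2F2 peaks above the median width of their list, a sole-NR2F2 neighbour was found for 9.29% of sole-NR2F2 regions and 3.04% of all H3K27ac peaks. After H3K27ac peaks no more than 10 kb apart had been joined into stitched regions, 3193 sole-NR2F2 regions (47.3%) stood alone, against 27.6% of all H3K27ac peaks. A further 2330 (34.5%) shared a stitched region with an H3K27ac peak that held another factor, and 1222 (18.1%) shared one in which no peak did. These last shares were not computed for all H3K27ac peaks, so whether they are high or low is not shown. The 6745 regions fell into 6270 stitched regions, of which 5835 held 1 of them and 5 held 4, the highest number. Among those 5, the 3 with the highest share, 4 of 10 H3K27ac peaks each, were at chr2:229910-277611, chr2:913336-964199 and chr9:3375524-3434235. In windows of 1 Mb, which were looked at only once the data were known, the first of chromosome 2 held the most, 26 of 106 H3K27ac peaks (24.5%). The median count was 2 over 2780 windows, but windows differ in how many H3K27ac peaks they hold. By share, the window of chromosome 2 from 175000001 was similar, with 16 of 64 (25%). Both stitched regions of chromosome 2 named above lie in its first window.

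The distances to the next acetylated region were not smooth. The nearest H3K27ac peak was 5 to 5.5 kb away for 633 sole-NR2F2 regions (9.44%), against 211 at 4 to 4.5 kb and 140 at 6 to 6.5 kb. For regions with NR2F2 and others the counts were 1552, 705 and 715, and for regions with no factor 2641, 2205 and 1612. Among the sole-NR2F2 regions at 5 to 5.5 kb, the neighbour held NR2F2 in 70.6%, against 40.8% at 4 to 4.5 kb and 38.6% at 6 to 6.5 kb. The same spacing was frequent between consecutive peaks within the lists. NR2F2 peaks had 1252 gaps of 5 to 5.5 kb, against 334 of 4 to 4.5 kb and 486 of 6 to 6.5 kb, and H3K27ac peaks 4642, 3021 and 3144. In the other 4 lists, gaps of 5 to 5.5 kb were between 1.56 and 2.81 times as many as those of 4 to 4.5 kb, and between 1.06 and 1.37 times as many as those of 6 to 6.5 kb. The distance to the nearest other factor also rose unevenly near 5 kb. It was within 3831 bp for 19.9% of sole-NR2F2 regions, within 4642 bp for 23.6% and within 5623 bp for 32.6%. For regions with no factor these shares were 33.0%, 38.1% and 45.6%. The source of this spacing was not tested, and the comparison was chosen after seeing the data.

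Sole-NR2F2 regions were unevenly spread over chromosomes, and X stood apart. On X, 378 of 2257 H3K27ac peaks were sole-NR2F2 regions, or 16.7% (15.2 to 18.4%), against 6.51% on autosomes (6.35 to 6.66%). The autosomes ranged from 3.45% on chromosome 12 to 9.01% on chromosome 2. NR2F2 as such was also more frequent in H3K27ac peaks of X, at 41.8% against 25.2% on autosomes, and where present it was alone in 40.0% of cases against 25.9%. RXRG was in 27.4% of H3K27ac peaks of X, against 20.4% on autosomes. YY1 was in 31.8% and 30.9%, TEAD1 in 16.6% and 19.1% and SREBP1 in 13.1% and 15.1%, in the same order. H3K27ac peaks of X were narrower, with a median of 599 bp against 741 bp. Within each of 4 classes of width, X was above the autosomes, at 26.3% against 9.93% in the narrowest and 3.86% against 2.37% in the widest. In that widest class X had 14 sole-NR2F2 regions among 363 peaks, and the interval of 2.12 to 6.39% takes in the autosomal share. The distance to the nearest other factor was a median of 38110 bp for sole-NR2F2 regions of X and 10497 bp for those of autosomes. Regions with no factor differed in the same direction, at 11382 bp on X and 6234 bp on autosomes. The next H3K27ac peak was also farther on X, at a median of 25114 bp from sole-NR2F2 regions against 8423.5 bp on autosomes. The part of this sparser acetylation and of width in the share on X was not tested beyond the classes above.

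**Figure D5:**
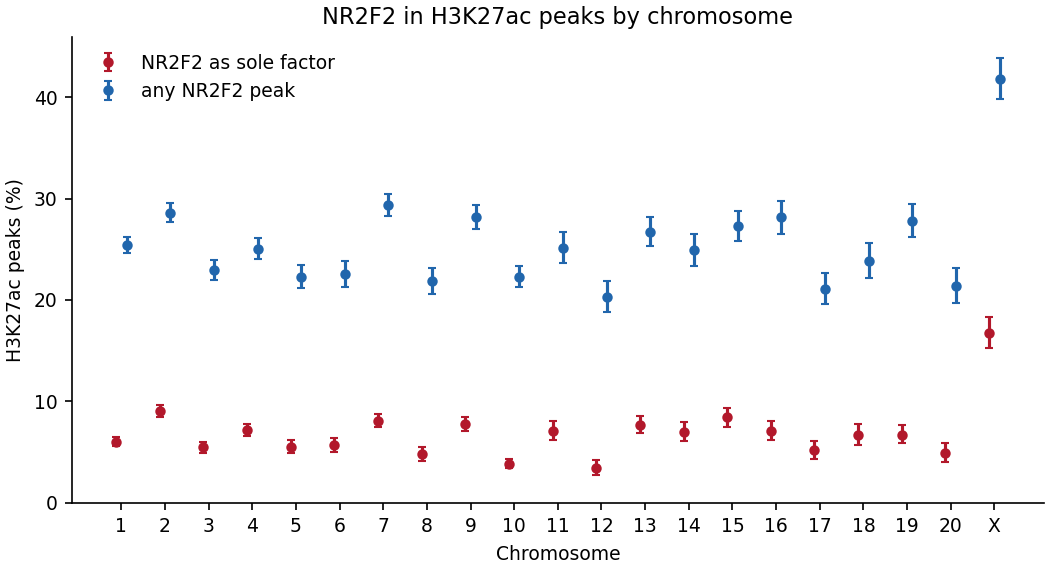
Percentage of the H3K27ac peaks of each chromosome (x axis) that held NR2F2 as sole factor and that held any NR2F2 peak, with exact binomial 95% intervals. X is highest in both, at 16.7% and 41.8%, while autosomes lie between 3.45% and 9.01% for NR2F2 as sole factor.

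The 3 sole-NR2F2 regions farthest from any other factor lay on chromosomes 6 and 3. At chr6:26115667-26115976 the nearest peak of another factor, of TEAD1, was 778263 bp away, and an NR2F2 peak of 389 bp spanned the whole acetylated region. At chr6:26033895-26034125, an H3K27ac peak of 231 bp, it was 696491 bp away. At chr3:23725657-23726166 the nearest other factor was SREBP1, 404276 bp away. A further 51 sole-NR2F2 regions lay on unplaced scaffolds, where all 51 H3K27ac peaks with NR2F2 were alone by necessity, since the lists of the other 4 factors held no peak there. Left to the placed chromosomes, the number was 6694.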

How the data were processed

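Per the submitters' processing notes, bcl2fastq 2.20.0.422, Bowtie2, MACS2, bedtools and deepTools were used on build rn5. For their roles, peak thresholds and controls, the sources used here give no statement. Each deposited list gives peak positions, printed here counting from 1. The deposited score of the SREBP1 list is the same in every peak and was not used.

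Overlap of at least 1 bp, edge-to-edge distances, stitching at a gap of 10 kb or less and exact 95% intervals were computed with Python 3.11.15, NumPy 2.4.6, pandas 2.3.3 and SciPy 1.17.1. The overlap, distance and stitching functions, but not the intervals, were compared with brute force on 600 simulated regions, with 0 values differing. Stitching was checked there only by the number of joined regions, at a gap shorter than 10 kb. The 200 planted NR2F2 regions, each with a peak placed inside it, were all recovered as regions with NR2F2, without regard to the other factors. Samples were assigned to targets by title. No test was run. Alternatives were overlap of 50% of the shorter peak, midpoints, extension by 500 bp, wider NR2F2 peaks, joining of H3K27ac peaks, SREBP1 ignored, placed chromosomes, and the narrowest H3K27ac peaks left out. The regions and measures were chosen with earlier results of these data known. Named regions were the 5 widest, the 5 with most NR2F2 peaks, the 5 with the widest NR2F2 peak, the 3 with another factor nearest, the 3 with other factors farthest and the 3 stitched regions with most of them. A few of each group are given. Motifs and gene names were planned if rn5 sequence and annotation were given, and were not analysed here.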

Additional observations from a re-analysis of the deposited data

Results flagged for a closer look

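The NR2F2 list held 13 peaks on the mitochondrial genome, which the choice of regions left out. This is a signal outside the regions described, with no control list to set it against. The H3K27ac list held 2 there, YY1 9, RXRG 16, TEAD1 9 and SREBP1 0.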

How the results depend on the processing

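Of 65 values recomputed for 8 results under 9 settings, 45 stayed within the counting interval of the reported value, or within 1.5 times it for the number of regions, and 20 did not. An overlap of 50% of the shorter peak gave a median position of 0.388 and another factor within 1 kb in 8.84%. Requiring the factor's midpoint in the region gave a width of 455 bp, a position of 0.378 and 9.05% with another factor within 1 kb. Both settings let another factor overlap and still count as absent. The first allows an overlap below 50% of the shorter peak. The second allows any overlap if the factor's midpoint lies outside the region. Extending the other factors by 500 bp gave 2.21% within 1 kb, and ignoring SREBP1 gave 4.83%. Regions with no factor moved in the same direction under these 4 settings, to 14.6%, 15.1%, 4.33% and 7.49%, and stayed above sole-NR2F2 regions. Using only NR2F2 peaks above the list's median width gave 3121 regions, with a width of 468 bp, more than 1 NR2F2 peak in 0.481%, an NR2F2 peak width of 391 bp, a position of 0.367 and a sole-NR2F2 neighbour in 9.29%, while sole-NR2F2 regions were 3.14% of all H3K27ac peaks. Without the narrowest of 4 width classes of H3K27ac peaks there were 4154 regions, with a width of 659 bp, more than 1 NR2F2 peak in 4.24%, an NR2F2 peak width of 295 bp, a position of 0.463 and a sole-NR2F2 neighbour in 13.3%, with sole-NR2F2 regions at 5.57% of the peaks kept. Leaving out sole-NR2F2 regions 4.5 to 6 kb from the next H3K27ac peak, a setting chosen after seeing the data, gave a sole-NR2F2 neighbour in 15.2%. Some of these shifts follow from the settings themselves. Keeping only wide NR2F2 peaks raises their width, and leaving out narrow H3K27ac peaks raises the width of regions. Extending the other factors leaves out regions that lie close to them. The cause of the remaining shifts was not tested. For region width and for the number, width and position of NR2F2 peaks, regions with NR2F2 and others were not recomputed under these settings. Whether sole-NR2F2 regions differ from them there in these measures is thus not shown. No paired analysis was possible because each target had 1 library and no test was run. Read depth and peak thresholds are unknown, so a missing peak can be a weak one, and numbers of peaks depend on each list's own threshold. Motifs were not run.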
